A study of Triticum aestivum with 2 samples.

Results

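The large section pair of the root cap region chip comprised 2 cross-sections of wheat root, lying at the same place in the 2 groups of sections on that chip. Its members were the spots inside a fixed circle around each section, and they made up 2 of the 14 sections that could be outlined by hand on both chips of the study, 10 of them on the root cap region chip. The sections came from soil-grown roots of Triticum aestivum, ecotype Chinese spring, cut across at 10 μm and profiled with STOmics Stereo-seq, an untargeted spatial transcriptomics method in which captured RNA molecules are counted at known places on a chip. The count unit is the molecular identifier, MID. The large pair was set against the neighbouring pair, the 2 sections next to it in the same groups, and sections are numbered here by their group (large section 1 and neighbouring section 1 in the first, large section 2 and neighbouring section 2 in the second). All 4 sections share genotype, growth, chip and library, and no treatment separates them. With 1 library there was no replicate check and no test between the pairs. The limits given are exact 95% limits that cover counting error only, and sections of 1 chip are not independent samples.

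A growing root tip runs from the root cap through a meristem, where cells divide, to a zone where cells leave the cycle, take up water and elongate. Genes for histones are transcribed when DNA is replicated, so their RNA marks cells at the G1/S transition and in S phase, while B-type cyclins and their kinases mark cells that enter mitosis. Aquaporins, expansins, peroxidases and enzymes that make wall polymers are known from cells that expand and build their walls. In a wheat root the meristem spans many layers, from the stele in the centre through endodermis and cortex to the epidermis.

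Large sections 1 and 2 held 330071 and 589834 MIDs of nuclear genes, and neighbouring sections 1 and 2 held 326248 and 417241. The name of the pair therefore described large section 2, while large section 1 had about as many MIDs as its neighbour. Between 29060 and 36013 gene IDs were detected in a section, and exonic MIDs made up 78.4% and 78.8% in the large pair and 76.3% and 75.3% in the neighbouring pair. One MID was worth between 1.70 and 3.07 CPM, counts per 1000000 nuclear MIDs of the section, the scale used for every level that follows. RNA also lay outside the sections. The density in a ring around large section 1 was 5061 MIDs per 10000 spots against 4288 inside it, while around the other 3 sections it was 2493 to 3505 against 4325 to 5394 inside. The part of this outside RNA in the results was not tested. A spot is a small region and not a cell, and fewer cells of a type and less RNA per cell cannot be told apart.

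Of 46673 gene IDs detected in the 4 sections, 4876 had at least 50 MIDs over the 4 sections together and were compared. A gene was called where the lower of the large sections was at least 2-fold the higher of the neighbouring sections, or the reverse. By this rule 146 genes (2.99% of those compared) were higher and 104 genes (2.13%) were lower in the large pair. Together the genes called higher took 18972 and 17822 CPM in large sections 1 and 2, against 6415 and 6651 in neighbouring sections 1 and 2. The genes called lower took 3932 and 4444 CPM in the large sections, against 13713 and 13120 in the neighbouring ones. These sums only describe the calls, because the same values chose the genes. The genes nearest to the threshold had a ratio of 2.0 just inside and 1.99 just outside it in either direction. The median log2 fold over all genes compared was 0.01. The 2 sections of a pair were closer to each other than to the other pair: the median absolute log2 difference over the genes compared was 0.28 within the large pair and 0.30 within the neighbouring pair, and 0.46 to 0.51 between sections of different pairs.

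**Figure D1:**
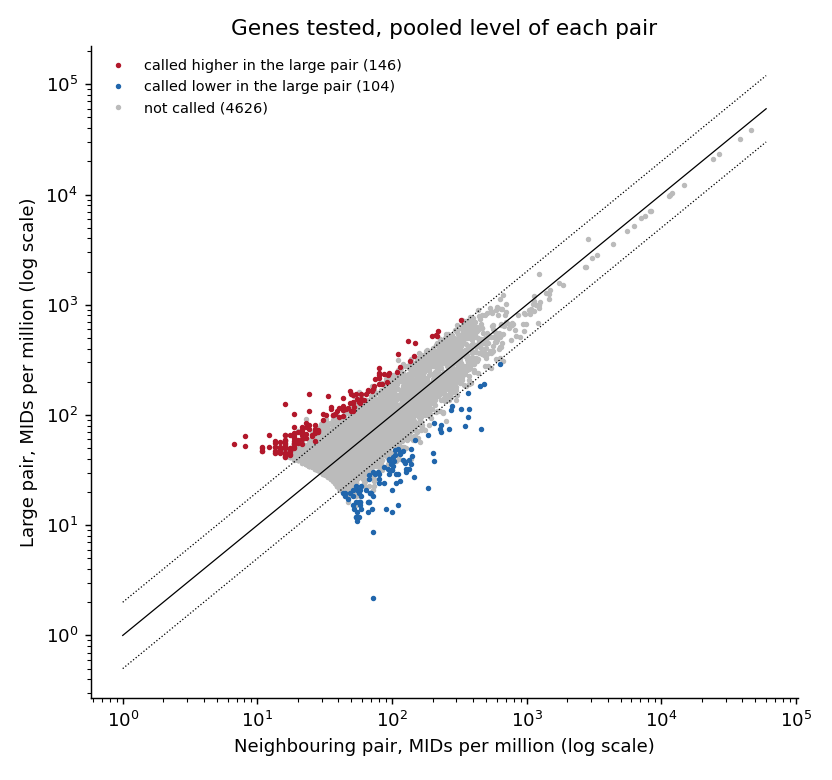
Pooled level of each of the 4876 genes compared, in CPM, in the large pair (y axis) and in the neighbouring pair (x axis), both on log scales. The solid line marks equal levels and the dotted lines a 2-fold difference; red points are the 146 genes called higher in the large pair, blue points the 104 called lower, and most genes, abundant ones included, lie along the solid line.

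Genes of the cell cycle were higher in the large pair. The 20 genes that the study lists as markers of G1/S took 4257 and 4444 CPM in large sections 1 and 2, against 2697 and 2552 in neighbouring sections 1 and 2. The large sections were thus close to each other and both lay above the neighbouring ones, by 1.67-fold over the pairs (95% limits 1.58 to 1.77). All 20 genes were compared, all 20 had a log2 fold above 0, with a median of 0.87, and 2 of them were called higher, against 2.99% of all genes compared. The first was TraesCS1D03G0852900, with 215 and 239 CPM in the large sections against 76.6 and 83.9 in the neighbouring sections. The other was TraesCS1B03G1035400, with 176 and 163 in the large sections against 79.7 and 55.1 in the neighbouring sections. In the most abundant gene of the list, TraesCS1B03G0109700, the pairs were nearer, with 503 and 532 CPM in the large sections against 457 and 369 in the neighbouring sections, a 1.28-fold difference (1.11 to 1.48) that was not called. The study selected this list on sections of these chips, so its direction is not independent evidence.

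Histone genes were taken from an orthology table of the study, whose copy was shortened, so that only the first 20 genes of the row matched to Arabidopsis histones, all on chromosomes 1A and 1B, could be used. They gave a ratio of 1.95 (1.79 to 2.13), with levels of 1930 and 1814 CPM in the large sections against 1008 and 906 in the neighbouring sections. Only 2 of these genes are also on the G1/S list. Of the 18 compared, all had a log2 fold above 0, 5 were called higher, against 2.99% of all genes compared, and none lower, with a median log2 fold of 0.93. The strongest of the 4 most abundant called genes was TraesCS1A03G0879500, with 121 and 117 CPM in the large sections and 36.8 and 33.6 in the neighbouring sections, a 3.39-fold difference (2.19 to 5.42). TraesCS1A03G0885400 stood at 148 and 134 in the large sections against 52.1 and 57.5 in the neighbouring sections. TraesCS1A03G0669100 and TraesCS1A03G0879000 were 2.3-fold (1.67 to 3.21) and 2.29-fold (1.61 to 3.33) higher. The call rule fixes that the pairs do not overlap in these genes. Histone genes are near-identical copies, so counts may be split among them and the values of single genes are less certain than their sum.

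Genes of mitosis followed the same direction at much lower counts. The 20 G2/M genes of the study took 354 and 370 CPM in the large sections against 184 and 199 in the neighbouring sections, a ratio of 1.89 (1.55 to 2.32). The first 20 genes, all that the shortened copy shows, of the row matched to Arabidopsis genes of dividing cells, B-type cyclins and their kinases among them, gave 364 and 385 against 184 and 192, a ratio of 2.0 (1.64 to 2.46). The lists share 9 genes, which is 45.0% of each. Only 1 gene of each list reached 50 MIDs and neither was called, so here the summed level and not single genes carries the difference. The most abundant G2/M gene, TraesCS3B03G0839200LC, had 30.3 and 47.5 CPM in the large sections against 21.5 and 12.0 in the neighbouring sections.

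**Figure D2:**
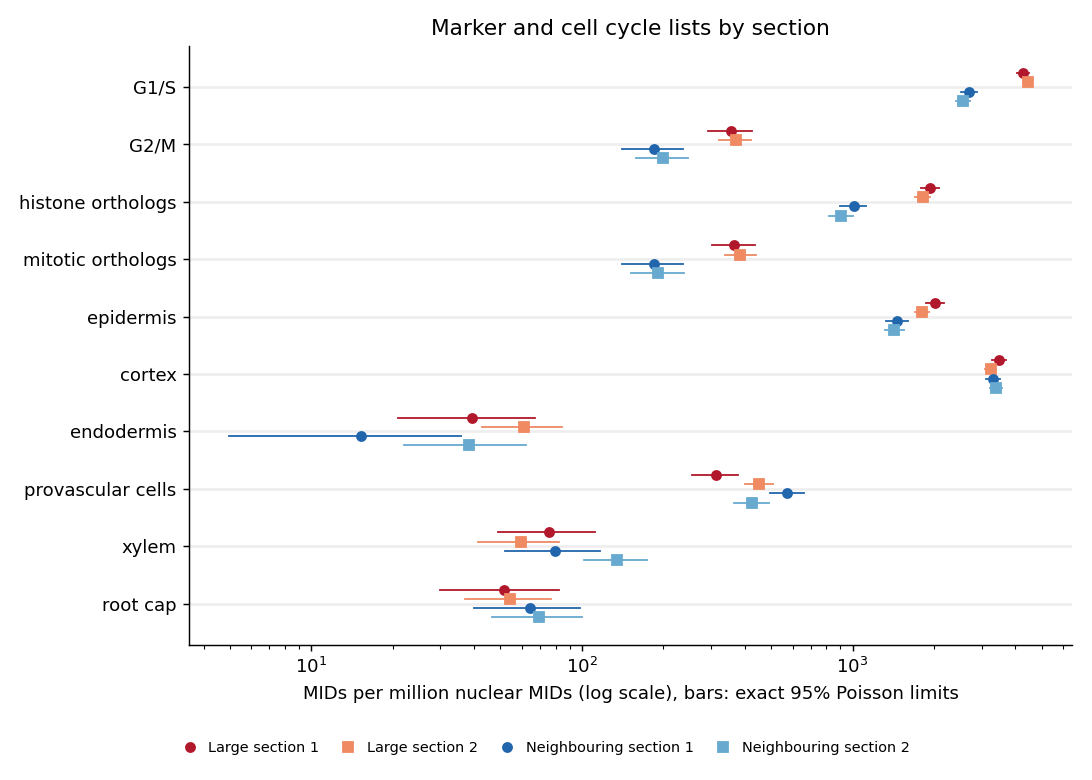
Summed level of each marker or cell cycle list (y axis) in CPM (x axis, log scale) in the 4 sections, with bars for exact 95% Poisson limits of the count. Both large sections (red and orange) lie to the right of both neighbouring sections (blue) for G1/S, G2/M, histone and mitotic genes, while for the cortex and provascular lists the pairs overlap.

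The G1/S, G2/M and histone differences were larger in the outer part of the sections. When each section was divided at 0.4 of its radius, a boundary chosen after the values were seen, the G1/S genes in the inner part took 5568 and 4705 CPM of that part in the large sections against 4206 and 4353 in the neighbouring sections, a ratio of 1.15 (1.03 to 1.28). In the outer part they took 4086 and 4387 in the large sections against 2262 and 2095 in the neighbouring sections, a ratio of 1.97 (1.85 to 2.1). By this split, G1/S RNA was more even across the large sections than across the neighbouring ones. Inner over outer, the level was 1.36 and 1.07 in the large sections and 1.86 and 2.08 in the neighbouring sections. In 5 rings of equal width, however, large section 1 was not even, with 7267 CPM in the innermost ring and 3824 in the outermost. Large section 2 had 4258 and 4887 in these rings. Neighbouring section 1 had 3880 and 2245, and neighbouring section 2 had 5119 and 2090. Histone genes gave a ratio of the pairs of 1.24 (1.05 to 1.47) in the inner part and 2.38 (2.14 to 2.65) in the outer part. For G2/M genes the ratio was 0.780 (0.527 to 1.14) in the inner part, where its limits take in 1, and 2.88 (2.23 to 3.77) in the outer part. The mitotic orthologs had 1.57 (1.04 to 2.37) inside and 2.22 (1.76 to 2.83) outside, limits that overlap. The inner part of large section 1 held the fewest MIDs, 38075 against 104563 in that of large section 2, and its inner values are the least certain. Cortex markers, inner over outer, stood at 0.334 (0.245 to 0.446) in large section 1 and 0.151 in large section 2. In the neighbouring sections they stood at 0.168 and 0.114. Whether the inner parts of the 4 sections hold the same cell layers was not tested.

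**Figure D3:**
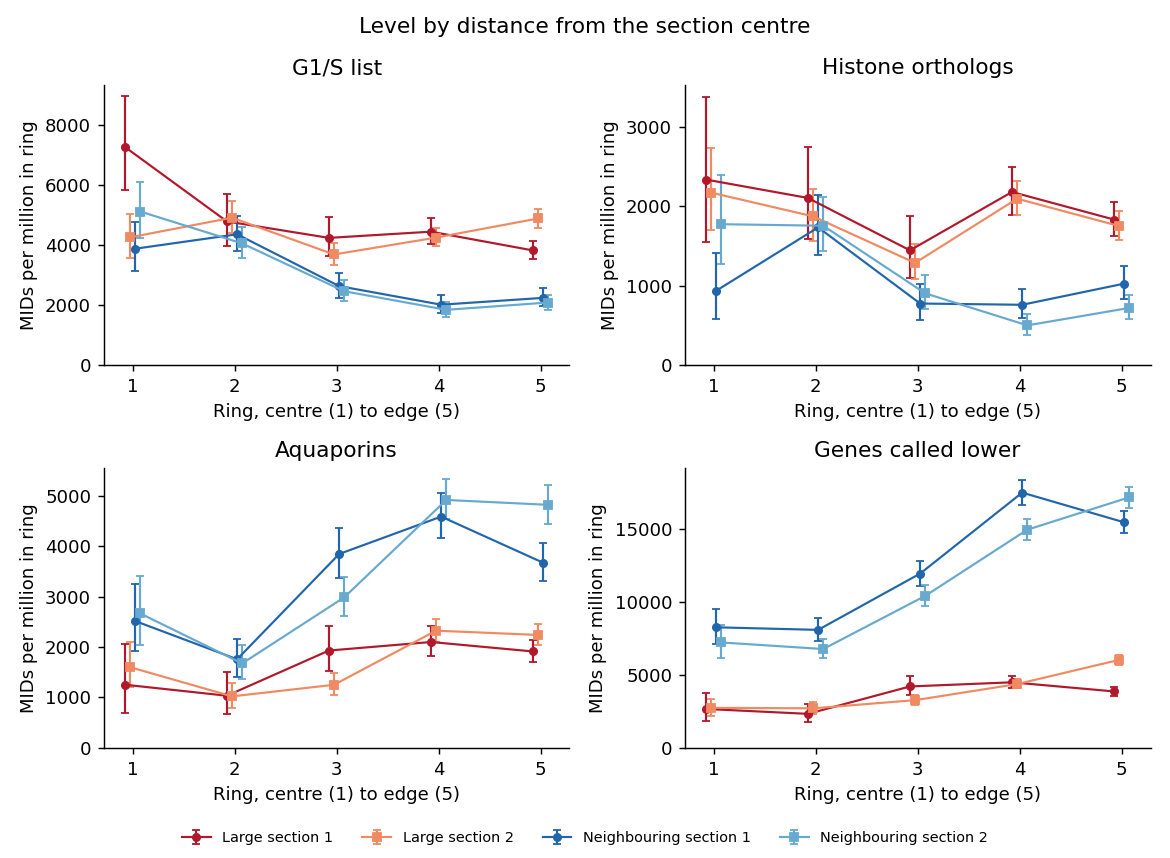
Level in 5 rings of equal width from the centre (1) to the edge (5) of each section, in CPM of the ring, with exact 95% Poisson limits, for G1/S genes, histone orthologs, aquaporins and the genes called lower. In rings 3 to 5 both large sections lie above both neighbouring sections for G1/S and histone genes, while in the inner rings several limits overlap, and the aquaporin lines of the neighbouring sections climb well above those of the large sections in the outer rings; genes called lower were chosen on these sections.

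Lists of outer and inner layers also differed in position. Mean distances are given in units of the radius, relative to all nuclear MIDs of the section. Epidermis markers lay 0.0754 and 0.181 further out in large sections 1 and 2 and 0.159 and 0.180 further out in neighbouring sections 1 and 2. Provascular markers lay further in by 0.255 and 0.322 in the large sections and by 0.30 and 0.30 in the neighbouring sections. Epidermis RNA thus lay outwards and provascular RNA inwards in all 4 sections, with the smallest epidermis shift in large section 1. Cortex markers were at -0.00409 and 0.0707 in large sections 1 and 2 and at 0.0686 and 0.0556 in neighbouring sections 1 and 2. All nuclear MIDs, however, had a mean distance of 0.726 in large section 1. In large section 2 it was 0.655, and in the neighbouring sections 0.625 and 0.635. The mean distance of cortex RNA itself was 0.722 and 0.725 in the large sections and 0.693 and 0.691 in the neighbouring ones. The shifts of large section 1 are thus measured from a baseline further out, and cortex RNA did not lie further in there.

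Aquaporins, the channels that carry water across the plasma membrane (PIP) and the vacuolar membrane (TIP), were less abundant in the large pair. Their 21 listed genes took 1875 and 1904 CPM in the large sections against 3580 and 3902 in the neighbouring sections, 1.99-fold less (1.87 to 2.1). All 11 compared genes had a log2 fold below 0, the median was -1.01, and 2 were called lower, against 2.13% of all genes compared. These were PIP2-1 (TraesCS2A03G0414000), with 78.8 and 71.2 CPM in the large sections against 261 and 201 in the neighbouring sections, and PIP2-6 (TraesCS2B03G0175100), with 15.1 and 17 against 46.0 and 64.7. They were 3.08-fold (2.31 to 4.14) and 3.46-fold (1.88 to 6.73) lower. The most abundant member, TIP1-1 (TraesCS4B03G0809400), missed the call with 630 and 719 CPM in the large sections against 1177 and 1227 in the neighbouring sections. For TIP1-1 the pairs did not overlap. The difference was present in both parts of the section, 1.68-fold (1.39 to 2.03) inside and 2.09-fold (1.97 to 2.23) outside.

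A protein name was at hand for 274 of the 4876 genes compared, from tables of the study that were seen only in part. Of these, 29 were called lower and none was called higher in the large pair, while 2.13% of all genes compared were called lower and 2.99% higher. The names came from tables of genes the study had selected, so they are not a random sample of the genome. The histone orthologs called higher, for example, carry no protein name in these sources and are not among the 274. The largest difference was in a sucrose:sucrose 1-fructosyltransferase-like gene (TraesCS4A03G1224300), whose product starts the synthesis of fructan, the storage sugar of wheat. It had 15.1 and 15.3 CPM in large sections 1 and 2 against 113 and 110 in neighbouring sections 1 and 2, 7.34-fold less (4.14 to 14).

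Among the genes called lower, several shared a protein name with a called gene on another subgenome. These groups were picked from the calls, so their common direction is fixed, and genes of the same name that were not called were not counted. The 3 tricin synthase 1-like genes called lower are for an enzyme that forms the flavone tricin, a compound of grass cell walls, by methylation. TraesCS7A03G0552300 had 24.2 and 28.8 CPM in the large sections against 150 and 144 in the neighbouring sections. TraesCS7D03G0534100 had 36.4 and 50.9 in the large sections against 208 and 194 in the neighbouring sections. The copy on 7B, TraesCS7B03G0369400, differed less, by 2.57-fold (1.75 to 3.82), against 5.39-fold (3.47 to 8.70) on 7A and 4.39-fold (3.10 to 6.34) on 7D. The 3 basic leucine zipper 6-like genes called lower, for transcription factors, included TraesCS3A03G0731500, by 3.88-fold (2.55 to 6.06), and TraesCS3B03G0838100, by 2.72-fold (1.80 to 4.18). In TraesCS3D03G0674700 the difference was 3.80-fold (2.04 to 7.52), with a ratio of 0.263, and 0.419 without large section 2. The 2 IAA13-like genes called lower, for repressors of the auxin response, were TraesCS5D03G0876900, by 4.12-fold (2.28 to 7.91), and TraesCS5B03G0966100, by 2.80-fold (1.60 to 5.09).

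Several genes called lower act on the cell wall. UDP-glucose 6-dehydrogenase makes the UDP-glucuronic acid from which pectin and xylan precursors are formed, and its gene TraesCS5A03G0942400 had 60.6 and 81.4 CPM in the large sections against 230 and 292 in the neighbouring sections. A second such gene, TraesCS4A03G0686700, was lower by 2.46-fold (1.93 to 3.16). The polygalacturonase gene TraesCS3D03G0037900, for a pectin-cutting enzyme, had 30.3 and 39.0 in the large sections against 116 and 156 in the neighbouring sections. Its RNA lay at the edge of the section, 0.192 of the radius further out than all MIDs in large section 2 and 0.151 and 0.203 in the neighbouring sections, while large section 1 had too few MIDs for a position. The beta-galactosidase 9 genes TraesCS7A03G0889100 and TraesCS7D03G0848600, whose products remove galactose from wall polymers, were 4.19-fold (2.22 to 8.47) and 2.58-fold (1.55 to 4.39) lower. A glycine-rich cell wall protein gene, TraesCS4A03G0829000, was 4.72-fold (2.39 to 10.2) lower, at 6.06 and 15.3 CPM in the large sections against 52.1 and 59.9 in the neighbouring sections. Without large section 2 its ratio was 0.107 in place of 0.212. A gene of the same name on the epidermis list, TraesCS5D03G1173000, did not follow: it had 376 and 371 CPM in the large sections against 307 and 300 in the neighbouring sections.

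**Figure D4:**
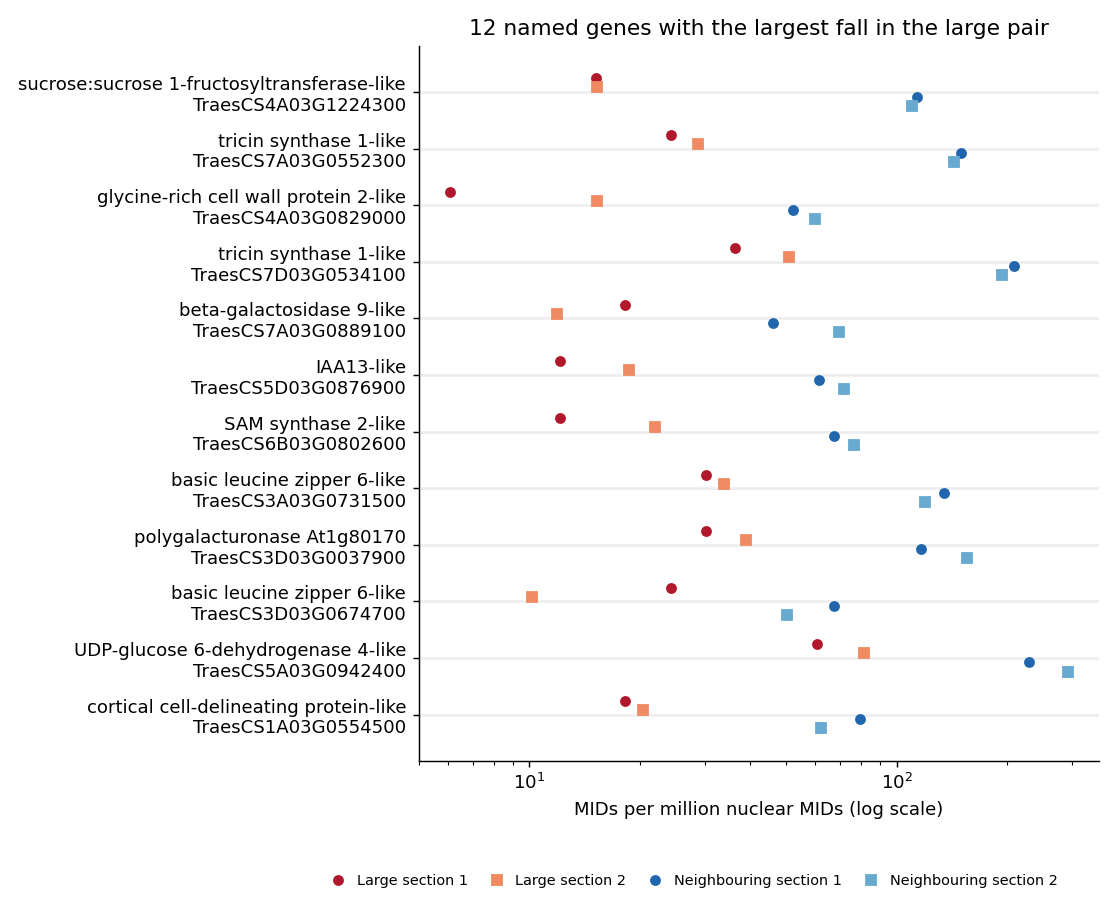
Level in the 4 sections, in CPM (x axis, log scale), of the 12 genes with a protein name and the largest difference among those called lower in the large pair, in order of size from the top. In every gene both large sections (red and orange) lie left of both neighbouring sections (blue), as the rule requires, and the sucrose:sucrose 1-fructosyltransferase-like gene shows the widest gap.

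The other named genes among the 12 were an S-adenosylmethionine synthase 2-like gene (TraesCS6B03G0802600), for the enzyme that makes the methyl donor used by tricin synthase among others, and a cortical cell-delineating protein-like gene (TraesCS1A03G0554500). The first had 12.1 and 22.0 CPM in the large sections against 67.4 and 76.7 in the neighbouring sections, a ratio of 0.254, or 0.167 without large section 2. A further S-adenosylmethionine synthase 2 gene, TraesCS6A03G0672900, was 2.85-fold (1.83 to 4.53) lower. The cortical gene had 18.2 and 20.3 in the large sections against 79.7 and 62.3 in the neighbouring sections. The smallest differences among the 29 were 2.19-fold, in the peroxidase 12-like gene TraesCS2D03G1302200 and in the apyrase 3 gene TraesCS2A03G0038300, the most abundant of them, with 288 and 293 CPM in the large sections against 622 and 650 in the neighbouring sections.

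The families of wall and defence proteins mostly leaned the same way. Class III peroxidases, which cross-link wall polymers, took 197 and 181 CPM in the large sections against 441 and 395 in the neighbouring sections, 2.22-fold less (1.84 to 2.69). Of their 53 listed genes 29 were detected, but 1 alone was compared, the peroxidase 12-like gene above. Expansins, which loosen walls during growth, took 336 and 395 in the large sections against 539 and 611 in the neighbouring sections, 1.55-fold less (1.34 to 1.79). Of the 5 expansins compared 2 were called lower (2.13% of all genes were), expansin-B4-like TraesCS4B03G0963400 by 2.90-fold (1.89 to 4.53) and expansin-A2-like TraesCS3B03G0945700 by 3.25-fold (2.06 to 5.27). The exception was expansin-B2-like TraesCS1B03G0651500, with 30.3 and 39.0 CPM in the large sections against 27.6 and 28.8 in the neighbouring sections.

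Germin-like proteins, which are secreted to the wall, gave the lowest ratio of any family with a gene compared, but the large sections differed in it. They took 276 and 158 CPM in large sections 1 and 2, against 454 and 513 in neighbouring sections 1 and 2, so that the ratio was 0.608 at the first place and 0.307 at the second. None of the 4 genes compared was called. Enzymes of phenylpropanoid synthesis took 90.9 and 117 in the large sections against 233 and 230 in the neighbouring sections, 2.1-fold less (1.67 to 2.78). A phenylalanine ammonia-lyase-like gene, TraesCS6B03G0759200, for the first enzyme of that pathway, was called, with 30.3 and 39.0 CPM in the large sections against 113 and 86.3 in the neighbouring sections. Secondary wall proteins were 1.68-fold less abundant (1.42 to 1.99), with none of 3 genes compared called. This family includes all 4 genes of the study's xylem marker list, so it is not separate from that list. GDSL esterases were 1.80-fold less abundant (1.40 to 2.33), with no gene compared.

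Tubulins and actins, which are abundant in every cell, took 3145 and 3269 CPM in the large sections against 4521 and 4266 in the neighbouring sections, 1.36-fold less (1.29 to 1.43). None of the 22 compared was called, and 18 had a log2 fold below 0. Pathogenesis-related proteins were 1.35-fold less abundant (1.22 to 1.5), with 1 of 11 called lower, against 2.13% of all genes compared. The called gene was chitinase-like protein 1 (TraesCS5A03G0671000), at 9.09 and 27.1 CPM in the large sections against 55.2 and 55.1 in the neighbouring sections. Its ratio was 0.375, and 0.165 without large section 2. Annexins (ratio 0.845, 0.737 to 0.969), dehydrins and LEA proteins (0.813, 0.647 to 1.02), dirigent proteins (1.06, 0.835 to 1.35) and the NAC, WRKY and MYB transcription factors (1.16, 0.872 and 0.799, all with limits that take in 1) differed less or not beyond counting error. Over all 21 families, 98 genes were compared, of which 5 were called higher, all of them histone orthologs, and 7 lower, against 2.99% and 2.13% of all genes compared.

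**Figure D5:**
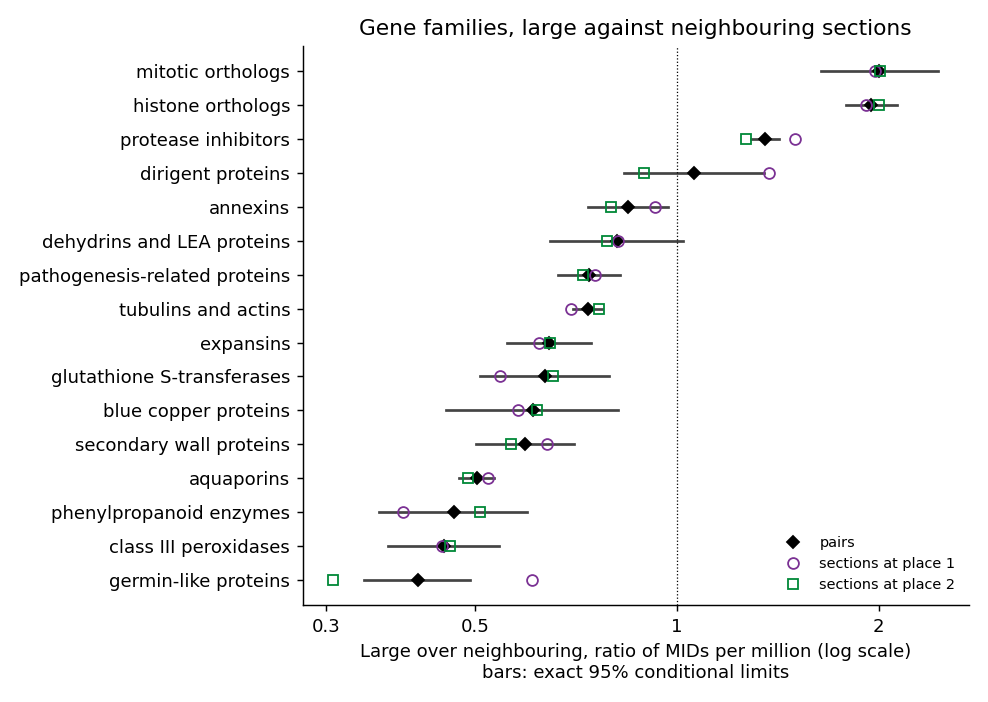
Ratio of the summed level of each gene family with at least 1 gene compared, large over neighbouring (x axis, log scale), for the pairs (diamonds, with exact 95% limits) and for the sections at the first and second place (open circles and squares). Histone and mitotic genes stand at about 2, protease inhibitors at 1.35, and aquaporins, phenylpropanoid enzymes, class III peroxidases and germin-like proteins at about 0.5 or below.

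Among families with a gene compared, protease inhibitors were the only one beside the histone and mitotic genes whose limits lay above 1. They took 5414 and 4603 CPM in the large sections against 3605 and 3631 in the neighbouring sections, a ratio of 1.35 (1.29 to 1.42). Of the 9 genes compared, 8 had a log2 fold above 0, with a median of 0.55, and none was called. Xyloglucan endotransglucosylases, which remodel walls, had 6 and 16 MIDs in the large sections and 5 and 1 in the neighbouring sections, too few for any gene to be compared. Their summed ratio was 2.96 (1.17 to 8.93), opposite in direction to that of peroxidases and expansins. It was 1.19 at the first place and 11.3 at the second. The most abundant protease inhibitors were 2 subtilisin-chymotrypsin inhibitor-2A-like genes. TraesCS1B03G0069700 had 1076 and 971 CPM in the large sections against 730 and 690 in the neighbouring sections. TraesCS1A03G0098300 had 1163 and 838 in the large sections against 552 and 647 in the neighbouring sections. The exception was the Bowman-Birk type trypsin inhibitor-like gene TraesCS1D03G0042100, at 445 and 400.1 in the large sections against 708 and 573 in the neighbouring sections. Beside these genes and TIP1-1, the named genes with the most MIDs in the large pair were 2 glucosidase genes that release benzoxazinoids, defence compounds of cereals, from their glucosides. TraesCS2B03G1500200 had 1303 and 1041 CPM in the large sections against 1493 and 1440 in the neighbouring sections, and TraesCS2B03G1501600 had 1063 and 977 against 1085 and 1146.

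Markers of the outer layers were present in all 4 sections. The 18 epidermis genes took 2012 and 1812 CPM in the large sections against 1459 and 1426 in the neighbouring sections, a ratio of 1.31 (1.21 to 1.41). None of the 14 compared was called, and their directions were mixed, with 9 at a log2 fold above 0 and 5 below. With the circles drawn at 0.8 of the radius the ratio of the list was 1.15, lower than with the full circles. The 14 cortex genes took 3481 and 3235 in the large sections and 3310 and 3396 in the neighbouring sections, a ratio of 0.989 (0.938 to 1.04). This sum joined opposite differences. The most abundant cortex gene, TraesCS2B03G1383800LC, made up 57.1% of the list in the large pair and 37.0% in the neighbouring pair and had 1990 and 1848 CPM in the large sections against 1260 and 1232 in the neighbouring sections. Without it, the other 13 genes took 1491 and 1387 in the large sections against 2051 and 2164 in the neighbouring sections, a ratio of 0.674 (0.625 to 0.725). Of the 13 cortex genes compared 1 was called lower, against 2.13% of all genes compared. It was TraesCS1B03G0768600, with 188 and 181 CPM in the large sections against 423 and 467 in the neighbouring sections. These lists too were chosen by the study on sections of these chips.

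Markers of the inner layers were sparse. The 8 provascular genes took 312 and 453 CPM in large sections 1 and 2 against 573 and 424 in neighbouring sections 1 and 2, so the pairs overlapped and the ratio was 0.544 at the first place and 1.07 at the second. The most abundant of them, TraesCS1B03G0051800, had 118 and 173 in the large sections against 196 and 168 in the neighbouring sections. The 4 xylem genes, for XCP1-like cysteine proteases that act when vessel cells die, took 75.7 and 59.3 in the large sections against 79.7 and 134 in the neighbouring sections. Their most abundant member, TraesCS5A03G0388600, ranged from 12.3 to 52.7 CPM within the neighbouring pair alone and stood at 30.3 and 25.4 in the large sections, so that its ratio was 0.515 without neighbouring section 1 and 2.22 without neighbouring section 2. Of the 5 endodermis genes, 4 were detected, with 39.4 and 61.0 CPM in the large sections against 15.3 and 38.3 in the neighbouring sections. The most abundant, TraesCS5D03G0492700, had 9.09 and 33.9 in the large sections and 0 and 12.0 in the neighbouring sections. None of the 5 phloem genes had a MID in any section, where 3 MIDs, the limit taken for a count of 0, amount to 9.09 and 5.09 CPM in the large sections and 9.20 and 7.19 in the neighbouring sections. Of the 5 pericycle genes 2 were detected, with a total of 1 and 0 MIDs in the large sections and 0 and 3 in the neighbouring sections. The most abundant was TraesCS6B03G0419800.

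Root cap genes, which the label of the chip names, were detected at low counts. The 19 root cap markers, of which 17 were detected, took 51.5 and 54.3 CPM in the large sections and 64.4 and 69.5 in the neighbouring sections, a ratio of 0.792 (0.523 to 1.2), and none of them reached 50 MIDs. With circles of 1.2 times the radius the ratio was 0.435, so it depended on where the circle was drawn. The most abundant, TraesCS3D03G1163600, had 3 and 5 MIDs in the large sections and 4 and 2 in the neighbouring sections.

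Most genes called in either direction carry no protein name in the sources used here. The 2 with the largest rise were TraesCS7A03G0078100, with 60.6 and 50.9 CPM in the large sections against 6.13 and 7.19 in the neighbouring sections, and TraesCS7A03G0345400, with 103 and 42.4 against 6.13 and 9.59. They were 8.08-fold (3.24 to 26) and 7.95-fold (3.44 to 22.5) higher, the second by 5.25-fold without large section 1 and 12.8-fold without large section 2. The largest fall was in TraesCS4B03G0814800, with 1 MID in each large section against 22 and 32 in the neighbouring sections, a ratio of 0.0299 (0.00354 to 0.113). The ID next to it, TraesCS4B03G0814900, is on the cortex list and was not called. It had 127 and 94.9 CPM in the large sections against 202 and 271 in the neighbouring sections. Whether these IDs are copies of a gene, so that reads could be split between them, was not tested. The second largest fall was in TraesCS4A03G0148700, with 15.1 and 25.4 CPM in the large sections against 199 and 175 in the neighbouring sections.

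The called genes came from all 3 subgenomes in similar numbers. Over all genes compared, 2.99% were called higher and 2.13% lower. Of 1599, 1628 and 1594 genes compared on the A, B and D subgenomes, 47, 56 and 43 were called higher and 38, 35 and 31 lower. By chromosome, the share called higher was largest on 6D, with 13 of 194 (6.70%), and on 1B, with 17 of 256 (6.64%). It was lowest of the placed IDs on 5D, with 1 of 264 (0.379%), while none of 55 unplaced IDs was called. Some IDs called higher have close numbers, such as TraesCS6D03G0130300 and TraesCS6D03G0130900, or TraesCS1B03G1025200 and TraesCS1B03G1025700. Whether such IDs are copies of a gene was not tested. The share called lower was largest on 4A, with 9 of 224 (4.02%), and lowest of the placed IDs on 6D, with 1 of 194 (0.515%). Low-confidence gene IDs made up 235 of the genes compared, 5 of those called higher and 3 of those called lower. The 10 most abundant IDs took 17.3% and 17% of the MIDs in the large sections against 19.7% and 20.5% in the neighbouring sections. None of them had a protein name, and by the median over these IDs 12.6% of their MIDs were exonic.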

How the data were processed

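Per the methods, alignment and counting were done by the authors in the STOmics Analysis Workflow. The deposited values are raw MID counts by gene ID and spot, with the exonic part of each count, over the whole chip. The aligner settings and build for these data, not given in the sources used here, could change which copy of a gene received a read. A total of 28281662 MIDs was found on the root cap region chip. The large pair and the neighbouring pair were cut out as 4 fixed circles, and MIDs were summed per gene ID. Chloroplast and mitochondrial rows, 0.00193% of the MIDs, were left out. Levels are CPM, computed here per 1000000 nuclear MIDs of the section.

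Genes with at least 50 MIDs over the 4 sections were compared. A call needed a 2-fold difference between the nearest sections of the pairs, with a count under 3 on the lower side set to 3 MIDs. Ratios have exact 95% conditional binomial limits and levels exact Poisson limits, for counting error only. The calls and limits were tried on simulated counts with Poisson counting error alone, which leaves out other differences between sections. Python 3.11.15, NumPy 2.4.6, pandas 2.3.3 and SciPy 1.17.1 were used.

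Genes were named by rule: the 12 with a protein name and the largest difference in each direction, the 2 largest without a name, the 5 named genes with the most MIDs, the most abundant gene of each marker list, and up to 4 called genes of each family. Copies on other subgenomes, exceptions within a family and neighbouring IDs were added after their values were seen, as were the 2 called G1/S genes and further named genes called lower. The sections, lists and members were chosen with earlier results of these data known. Protein names came from tables of the study that were seen in part, and histone and mitotic orthologs are the first 20 genes of their rows, so no enrichment was computed. The distal root region chip entered the number of outlined sections only.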

Additional observations from a re-analysis of the deposited data

Results flagged for a closer look

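The rows for chloroplast and mitochondrial RNA held 6 MIDs in the large pair, 1 in section 1 and 5 in section 2, and 2 and 1 in the neighbouring sections. The large pair's number was listed because it is above the 3 MIDs that a count of 0 allows. It is not above the level of the chip, which held 545 such MIDs, while the large pair held 3.25% of the chip's nuclear MIDs.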

How the results depend on the processing

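No paired test was made, because the chip is a single library. Sections at the same place were compared as ratios only, and a rule of agreement at each place called 204 genes higher and 140 lower. No named gene that was called changed direction. Under the alternatives, list ratios crossed 1 for cortex (up to 1.04), dehydrins (1.05 at 0.8 times the radius), dirigent proteins (down to 0.968) and WRKY factors (up to 1.08), whose limits took in 1. The provascular ratio, 0.822 over the pairs, was 1.07 at the second place. The counts of genes called higher and lower depend on the thresholds. They were 325 and 319 at a minimum of 20 MIDs, 69 and 50 at 100 MIDs, 532 and 310 at 1.5-fold and 19 and 28 at 3-fold. With circles of 0.8 times the radius they were 84 and 55, and 50 and 40 of these genes were among the 146 and 104. Leaving out 1 section gave 265 to 366 genes higher and 181 to 300 lower, since fewer sections had to agree. Counts under the other scalings, exonic MIDs alone, no low-confidence IDs, agreement at each place, thinning to equal depth and 1.2 times the radius stayed within 1.5 times, but 1.2 times the radius shared only 93 and 80 genes and thinning 80 and 73 with the 146 and 104. Of the family members, 5 were called higher and 7 lower. These were 19 lower at 20 MIDs, 4 lower at 100 MIDs, 11 higher and 22 lower at 1.5-fold, 1 higher and 0 lower at 3-fold, 3 higher and 4 lower at 0.8 times the radius and 11 lower at 1.2 times, and without 1 section 7 to 8 higher and 11 to 18 lower. The alternatives for families and for position were chosen after seeing the data.

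Of the marker list ratios, G1/S was 1.54 and epidermis 1.15 at 0.8 times the radius, and epidermis 1.44 and root cap 0.435 at 1.2 times. Without low-confidence IDs the cortex ratio was 0.653, because its most abundant gene has such an ID. Pericycle was 0 at 0.8 times the radius. Leaving out 1 section gave 0.637 to 0.948 for provascular cells, 1.39 to 3.48 for endodermis (highest without neighbouring section 2) and 0 to 0.751 for pericycle. G1/S RNA was shifted from all MIDs by -0.0296 and 0.0080 of the radius in the large sections and by -0.0679 and -0.0743 in the neighbouring sections. The mean shift of the large pair minus that of the neighbouring pair was 0.0603, and 0.0415 to 0.0791 without 1 section. Subtracting the density around the circles gave no value, because large section 1 had 330071 MIDs against 389580 expected from its ring. The cause of the other shifts was not tested.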
